A study of Mus musculus with 412 samples.

Results

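Transient receptor potential (TRP) channels were examined in single sensory neurons that innervate the mouse colon. The genes described are Trpv1, Trpv2, Trpv4, Trpa1, Trpm2, Trpm3, Trpm8, Trpc1 and Trpc5. These 9 genes were listed by symbol and found by Ensembl gene ID among the 45513 genes of the deposited expression table, and all 9 were present in it. Neurons from C57BL/6J mice had been labelled by injecting the retrograde tracer Fast Blue into the colon wall, and were picked singly by glass pipette from dissociated dorsal root ganglia (DRG). Thoracolumbar ganglia (TL, T10-L1) and lumbosacral ganglia (LS, L5-S2) were dissociated as separate primary cultures, so spinal segment and culture cannot be told apart. The table holds 167 TL and 158 LS neurons, prepared by the Smart-seq2 protocol for full-length transcripts in 6 library plates, of which plate 1 holds TL neurons only and plates 2 to 6 hold both segments. The mice were healthy and received no treatment other than the tracing surgery. Their age is not given in the sources used here.

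TRP channels are cation channels of the cell membrane that open to heat, cold, irritants, oxidants or signals from G protein-coupled receptors and let calcium and sodium into the cell. In visceral afferents they turn chemical, thermal and some mechanical stimuli into nerve activity. TRPV1, the capsaicin and heat receptor, and TRPA1, the receptor for electrophilic irritants such as mustard oil, are the members best known in pain from the gut, and both are sensitised by inflammatory mediators. Gfra3, the receptor subunit for artemin, marks many peptidergic nociceptors. Piezo2 is a mechanically gated channel, and Ntm encodes the adhesion molecule neurotrimin, which the study used on these neurons as a marker of a pelvic peptidergic subtype.

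All levels below are reads divided by the exon length of the gene and rescaled to a sum of 1000000 in each neuron. They are called the value of a gene. A neuron counted as expressing a gene at a value of 10 or more. The labels name no mouse or culture for a neuron, so TL and LS are each 1 sample and no p-value was computed. Neurons are not replicates of a segment, and the intervals given are exact Clopper-Pearson 95% intervals of a share of neurons. They cover counting error only, and leave out that neurons share plates and come from mice and cultures not named. Separately, PCR reads without molecular identifiers are not independent molecules. Repetition was read from plates 2 to 6, and a gene was called different between groups of neurons where its mean value differed by 2-fold or more and in the same direction in each plate with at least 3 neurons of both groups. The calls were made over all genes with a mean value of at least 1, and 7 of the 9 members reached that mean in all 7 comparisons. Trpv4 and Trpc5 did not.

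Recovered reads ranged from 416007 to 12058968 per neuron, the median being 2709639 for TL and 3202776 for LS neurons, and a value of 10 corresponded to a median of 44.9 reads for Trpv1, 54 for Trpa1 and 154 for Trpm2. Each of 9 sensory neuron markers, among them Tubb3 and Prph, reached 10 in at least 50% of the neurons of both segments. RNA of satellite glia, the cells that wrap each DRG neuron, differed between the segments: the summed value of 10 glial markers ran from 5.61 through a median of 2013 to 100411 in TL neurons and from 6.83 through 215 to 60355 in LS neurons. Apoe and Fabp7 carried most of this sum, and Sox10 reached 10 in 24 TL and 11 LS neurons. The lists of other cell types each rested mainly on 1 gene. The macrophage list rested on C1qb, at 10 or more in 196 neurons, while C1qa and C1qc reached 10 in none, which allows 0.923% of neurons. Egfl7 carried the endothelial list in most neurons, with a median of 42 and 10 or more in 291 neurons. Of the other endothelial markers, Esam reached 10 in 111 neurons, and Pecam1 and Cldn5 each in 2. The highest values of Cldn5 (19217) and Pecam1 (857) were in TL. A TL Piezo2 neuron without Gfra3 had an endothelial sum of 25321 and was kept. Dcn carried the fibroblast list, and the collagen gene Col1a1 reached 10 in 3 neurons.

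Trpv1 (chr11:73234292-73261242, plus strand, GRCm38) was the most abundant member. Its value in TL neurons ran from 0 through a median of 212 to 2058, with a mean of 454 ± 493 (SD over 167 neurons), and in LS neurons from 0 through a median of 836 to 4110, with a mean of 926 ± 911 (SD over 158 neurons). The share of neurons with Trpv1 was 71.9% in TL (120 of 167, 95% interval 64.4 to 78.5) and 72.2% in LS (114 of 158, 64.5 to 79). Among neurons with a summed value of satellite glia markers below 1000, the shares were 63.5% in TL (40 of 63) and 76.8% in LS (76 of 99). The neurons that had it differed in level, since their median was 640 for TL and 1179 for LS. Plate means of TL ran from 328 to 679 and those of LS from 724 to 1135, so the plate means of the segments did not overlap.

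Trpa1 (chr1:14872648-14918862, minus strand) showed the opposite order of segments. In TL it ran from 0 through a median of 82.2 to 1695 (mean 303 ± 429, SD over 167 neurons), and in LS from 0 through a median of 0.167 to 1372 (mean 119 ± 244, SD over 158 neurons). Its share was 65.9% in TL (110 of 167, 58.1 to 73) and 38% in LS (60 of 158, 30.4 to 46). Plate shares were 51.9% to 75.7% in TL and 28.6% to 48% in LS and did not overlap. Plate means of TL, from 207 to 453, overlapped narrowly with those of LS, from 66.9 to 217.

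Trpm2 (chr10:77907722-77970563, minus strand), a channel gated by ADP-ribose and opened under oxidative stress and warmth, was low in TL and higher in LS. TL neurons ran from 0 through a median of 3.52 to 21.4 (mean 4.34 ± 4.13, SD over 167 neurons) and LS neurons from 0 through a median of 10.9 to 51.3 (mean 13.4 ± 10.6, SD over 158 neurons). The share was 8.38% in TL (14 of 167, 4.66 to 13.7) and 55.1% in LS (87 of 158, 47 to 63). Since the median of LS lies close to the threshold, these shares moved with it, to 39.5% and 80.4% at a threshold of 5 and to 0.599% and 20.3% at 20, with LS above TL each time. Plate means were 3.26 to 5.83 in TL and 9.35 to 16.2 in LS and did not overlap.

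Trpv2 (chr11:62574486-62600515, plus strand), a relative of Trpv1 that opens to noxious heat above the range of TRPV1 in expression systems, was the most widespread member. It ran from 0 through a median of 60.3 to 245 in TL (mean 63 ± 48.3, SD over 167 neurons) and from 0 through 91.8 to 305 in LS (mean 98.2 ± 55.3, SD over 158 neurons). It reached 10 in 86.8% of TL (145 of 167, 80.7 to 91.6) and 94.9% of LS neurons (150 of 158, 90.3 to 97.8). Plate means of LS (72.7 to 119) all lay above those of TL (53.6 to 68.2).

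Trpm3 (chr19:22139046-22995410, plus strand), a heat-activated channel that also opens to pregnenolone sulphate, had like levels in both segments. The median was 10.2 in TL (highest 39.1) and 8.04 in LS (highest 42.4), and the share 52.1% (87 of 167, 44.2 to 59.9) and 39.9% (63 of 158, 32.2 to 48). Plate means overlapped, at 8.64 to 12 in TL and 4.9 to 11.8 in LS. The antisense gene Gm27151 overlaps Trpm3 and had a mean value of 9.22 in TL and 5.98 in LS. The counting is not stated to use strand, so reads of the overlap cannot be told apart.

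Trpm8 (chr1:88277661-88389293, plus strand), the cold and menthol receptor, was found in few neurons. It was at 0 in 112 of 167 TL neurons and 67 of 158 LS neurons, with a highest value of 63.4 in TL and 33.3 in LS. It reached 10 in 9.58% of TL (16 neurons, 5.58 to 15.1) and 8.23% of LS neurons (13 neurons, 4.45 to 13.7), with medians of 35.1 and 13.7 in those that did.

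Trpc1 (chr9:95705082-95750375, minus strand), a subunit of receptor-operated channels, was low in nearly all neurons, the median being 1.64 for TL and 2.77 for LS, with 4 of 325 neurons at 10 or more. Trpv4 (chr5:114622152-114658421, minus strand), which opens to hypotonic swelling and arachidonic acid products and is known as a mechanical transducer of colonic afferents, was listed at 0 in 284 of 325 neurons. Its highest value was 3.73, and 0 of 325 neurons reached 10, which allows a share of up to 0.923%. Trpc5 (chrX:144381671-144688180, minus strand), a channel linked to cold sensing, was at 0 in 312 neurons, with a highest value of 2.67 and the same limit. Ordered by mean over all 325 neurons on the per-length scale, the members ran from Trpv1 (683) through Trpa1 (214), Trpv2 (80.1), Trpm3 (10.1), Trpm2 (8.76), Trpm8 (3.44) and Trpc1 (2.51) to Trpv4 (0.187) and Trpc5 (0.0403). The neighbours Trpm3 and Trpm2 changed places between segments, Trpm3 being higher in TL (10.5 against 4.34) and Trpm2 in LS (13.4 against 9.72). In LS, the mean of Trpm8 (2.8) lay below that of Trpc1 (2.94), and their plate means overlapped, at 2.13 to 4.63 and 2.25 to 3.66.

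**Figure D1:**
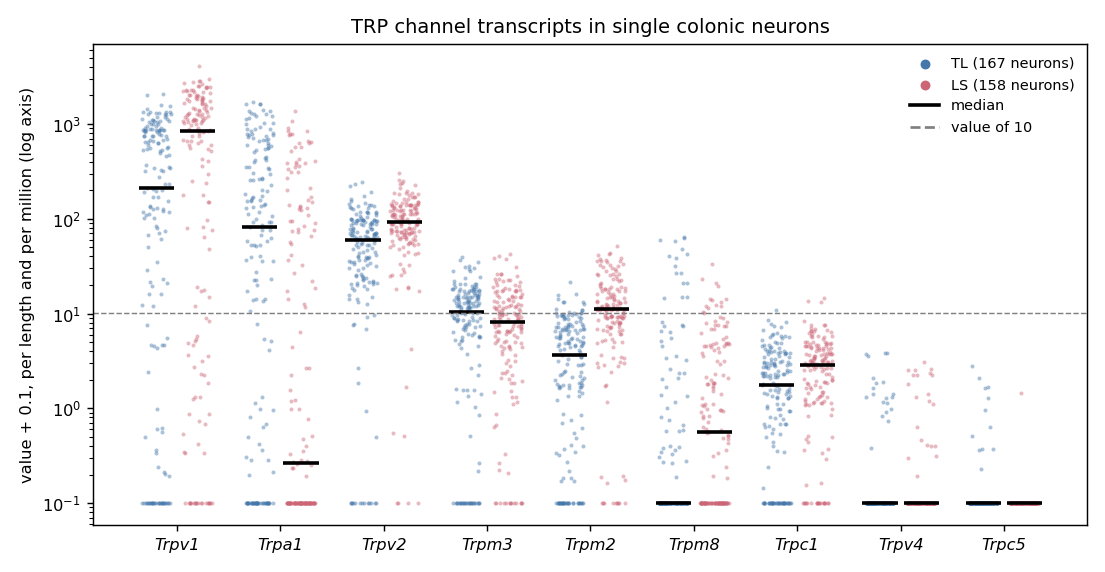
Value of each of the 9 members (per length and rescaled to 1000000 per neuron, with 0.1 added for a log axis) in each TL and LS neuron, with a black line at the median and a dashed line at a value of 10. Trpv1 reaches the highest values, up to 4110 in LS, Trpa1 splits into neurons with high values and neurons near 0, and no Trpv4 or Trpc5 point reaches the dashed line.

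The segments were compared to ask whether afferents of the splanchnic and the pelvic pathway carry different sensory channels. Between LS and TL neurons, 2 members were called higher in LS, against 3.68% of 15249 genes, and 1 was called lower, against 3.19%. Trpm2 was higher in LS by 3.09-fold (log2 ratio 1.63, from 1.05 to 2.30 over the 5 plates) and Trpv1 by 2.04-fold (log2 ratio 1.03, 0.42 to 1.79). Trpa1 was lower in LS by 2.55-fold (log2 ratio -1.35, -2.76 to -0.06). The median log2 ratio of the 7 members was 0.48, beside 0.0491 over all genes. Trpv2 was higher in LS in each of the 5 plates, by 1.56-fold, and Trpc1 likewise by 1.39-fold, both below the 2-fold needed for a call.

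The call of Trpv1 lay close to the limit and that of Trpa1 rested on plate 6. Without plate 5 the log2 ratio of Trpv1 was 0.81 and without plate 1 it was 0.99, neither of which is a call. Without plate 6 the log2 ratio of Trpa1 was -0.93 and its call was lost. Among neurons with a glial sum below 1000 (63 TL and 99 LS neurons), the mean of Trpv1 was 485 in TL and 1023 in LS, that of Trpa1 346 and 136, and that of Trpm2 4.52 and 14.6. The share with Trpm2 was 7.94% in TL and 62.6% in LS. There, the calls of Trpv1 and Trpm2 held, and Trpa1 kept its ratio but not its direction in each plate.

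**Figure D2:**
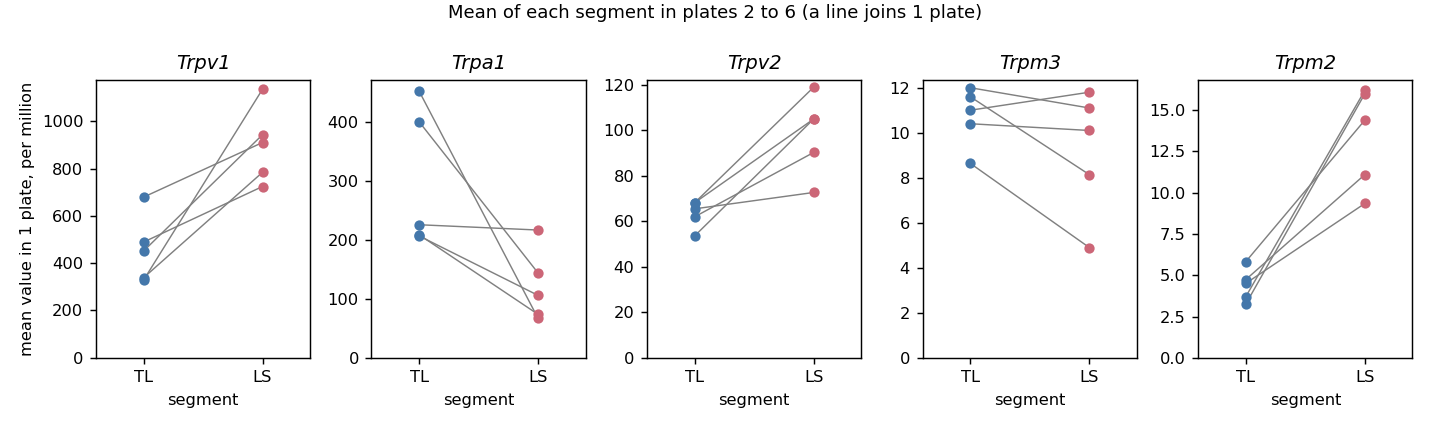
Mean value (per length and rescaled to 1000000 per neuron) of Trpv1, Trpa1, Trpv2, Trpm3 and Trpm2 in TL and LS neurons of plates 2 to 6, where a line joins the segments of 1 plate. Trpv1, Trpv2 and Trpm2 rise from TL to LS in all 5 plates and Trpa1 falls in all 5, in 1 of them by a log2 ratio of only -0.06.

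For Trpv1 and Trpm2, the members called higher in LS, the sequence of the 250 bases before the RefSeq start of each gene is given for reference (RefSeq, GRCm38.p6, written 5′ to 3′ on the strand of the gene). The window of Trpv1 is chr11:73233899-73234148 on the plus strand, has 50.8% G and C, and lies upstream of the gene start in GENCODE. The window of Trpm2 is chr10:77969873-77970122 on the minus strand, has 56.8% G and C, and lies within the GENCODE gene, in an intron of 1 of its transcripts. Capitals mark matches, on either strand, to the letters CCAAT (the motif of that name), TATAAA (bound by the TATA-binding protein), GGGCGG (known as the GC box) or TGTGGT (known from Runx factors).
Trpv1 upstream window: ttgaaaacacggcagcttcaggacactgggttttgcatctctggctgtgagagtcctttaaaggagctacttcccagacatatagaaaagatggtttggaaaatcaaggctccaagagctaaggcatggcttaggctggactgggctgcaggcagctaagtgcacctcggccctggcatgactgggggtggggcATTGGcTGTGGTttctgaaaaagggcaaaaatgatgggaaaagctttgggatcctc
Trpm2 upstream window: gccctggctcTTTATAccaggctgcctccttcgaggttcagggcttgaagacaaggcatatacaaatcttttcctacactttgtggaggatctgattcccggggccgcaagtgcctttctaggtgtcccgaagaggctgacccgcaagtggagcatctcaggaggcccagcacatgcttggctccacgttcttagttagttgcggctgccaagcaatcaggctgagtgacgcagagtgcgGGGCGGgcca
The Trpv1 window holds 1 CCAAT match, on the reverse strand, starting at base -56 from the RefSeq start, and 1 Runx match at -50. These letters occur in 33.8% and 14% of 32851 promoter windows of the same length. The Trpm2 window holds 1 TATAAA match, on the reverse strand at -240, and 1 GC box at -10, found in 12.4% and 32.7% of windows. It also holds 3 matches of an E-box (CANNTG), not set in capitals, which 66.2% of windows hold and the Trpv1 window does not. The windows thus share none of the 5 motifs searched, and a match of letters is a description, not a binding site.

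Members were next compared by the markers of the neurons. Of the 325 neurons, 183 had Gfra3 and 145 had Piezo2 at 10 or more, and 48 LS neurons had Ntm. Among Gfra3 neurons against the others, 2 members were called higher (background 4.75% of genes) and 1 lower (background 4.74%). Trpa1 was 23.8-fold higher, with means of 367 and 15.4, and Trpv1 8.26-fold, with means of 1109 and 134. The study had reported on these neurons that Gfra3 was selective to peptidergic subgroups that also had Trpv1. It had chosen Trpa1 as the marker of a peptidergic subtype, so these differences are not independent of the study's results. Trpm8 was 2.88-fold lower, with means of 1.89 and 5.44, and with a glial sum below 1000 its log2 ratio was -0.94 and no call. Trpm3 (1.88-fold) and Trpm2 (1.68-fold) had higher means in Gfra3 neurons in each of the 5 plates without reaching 2-fold, and the median log2 ratio of the members was 0.746, beside 0.0247 over all genes. The markers of other cell types also moved with Gfra3. In TL, the macrophage list had a median sum of 41.5 in Gfra3 neurons and 4.7 in Piezo2 neurons without Gfra3, and the fibroblast list 32.3 and 2.02. C1qb reached 10 in 70 of 100 and 3 of 55 of these neurons, while C1qa and C1qc reached 10 in none. The part of these lists in the result was not tested. For Trpa1 and Trpv1 the difference was seen in both segments: with Gfra3 and without it, the mean of Trpa1 was 486 and 29.4 in TL and 224 and 2.99 in LS, and that of Trpv1 719 and 57.3 in TL and 1579 and 203 in LS.

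Split by Piezo2, the members showed the reverse order. In Piezo2 neurons, Trpa1 was 10.1-fold lower (35.4 against 357) and Trpv1 5.44-fold lower (198 against 1075), where 3.69% of genes were called lower. Trpm8 was 6.05-fold higher (6.4 against 1.06), where 5.48% were called higher. The median of the members was -0.334, beside 0.0344 over all genes. Trpc1, at 3.18 against 1.97, was higher in each of the 5 plates by 1.61-fold. Gfra3 and Piezo2 largely divide the same neurons, with 18 TL and 7 LS neurons having both, so these comparisons are not separate lines of evidence. In the 18 TL neurons with both markers, Trpa1 had a mean of 124 and Trpv1 of 440, between those of the Gfra3 neurons and of the Piezo2 neurons without Gfra3.

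Within LS, Ntm neurons were set against the other 110 neurons. All 48 Ntm neurons had Trpv1 at 10 or more, with a lowest value of 236, a median of 1819 and a highest of 4110. Trpv1 was 3.23-fold higher than in other LS neurons (1783 against 552) and Trpm2 2.32-fold higher (22.2 against 9.58), where 2.13% of 15282 genes were called higher. Trpm8 was 2.48-fold lower (1.38 against 3.42), where 4.39% were called lower. Without plate 2, or with a glial sum below 1000, this was not a call (log2 ratio -0.90 in both). The other LS neurons include Piezo2 neurons without Gfra3, with a Trpm8 mean of 4.94, and Gfra3 neurons without Ntm, with a mean of 1.41. Trpa1 had a mean of 44.4 in Ntm neurons and 151 in the others, lower in 4 of 5 plates and so not called. The median of the members was 0.646, beside 0.0524 over all genes.

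Among LS Gfra3 neurons, 41 with Ntm and 42 without it differed in Trpa1. With Ntm it ran from 0 through a median of 0.303 to 423 (mean 52), and without Ntm from 0 through a median of 346 to 1372 (mean 391), a 7.53-fold lower mean with Ntm that held in each of 4 usable plates. Trpa1 was the 1 member called lower, where 2.17% of 15232 genes were, and 0 were called higher, where 4.00% of genes were. The study had chosen Trpa1 and Ntm on these neurons as markers of different subtypes. It described the Ntm subtype as lacking Trpa1, and elsewhere as having it to a lesser extent. The difference in Trpa1 is thus not independent of the choice of markers. Trpm2 (22.3 against 11.4, 1.95-fold) and Trpv1 (1905 against 1261, 1.51-fold) were higher with Ntm in all 4 plates but were not called. Trpm8 was alike, at 1.35 with Ntm and 1.41 without. The median of the members was 0.26, beside 0.0916 over all genes. The fibroblast list moved with this split, at a median sum of 696 (90.9 to 1866) with Ntm and 2.19 (0 to 849) without. Its gene Dcn reached 10 in 41 of 41 and 14 of 42 of these neurons, while Col1a1 had a mean of 1.28 and 0.00688, and the part of other cells in the result was not tested.

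Segment differences were then read within marker groups, since the segments hold different shares of each. Within Gfra3 neurons (83 LS and 100 TL), 2 members were called higher in LS, where 2.40% of 15248 genes were, and 0 lower, where 2.81% were. Trpv1 had a mean of 1579 in LS and 719 in TL (2.2-fold, log2 ratio 1.13, 0.92 to 1.64 over plates). Trpm2 had a mean of 16.8 in LS and 5.53 in TL (3.04-fold, log2 ratio 1.60, 0.42 to 2.34 over plates). Trpa1, at 224 and 486, was lower in LS in 4 of 5 plates and not called. It was called under other settings, among them geometric means, leaving out plate 3 and a glial sum below 1000. Without plate 5 the log2 ratio of Trpv1 was 0.99, and without neurons with few genes above 0 it was 0.98. With a glial sum below 1000 it was 0.84, and none of these is a call. The median of the members was 0.407, beside 0.0374 over all genes.

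Within Piezo2 neurons without Gfra3 (65 LS and 55 TL), Trpm2 alone among the members was called higher in LS, at 9.76 against 2.88 (3.39-fold), where 5.88% of 15104 genes were called, and 0 members were called lower, where 3.14% of genes were. Trpv1 (185 against 58) was higher in 4 of 5 plates and Trpa1 (3.43 against 35.7) lower in 4 of 5. Trpm3 (6.52 against 8.95) was lower in LS in each of the 5 plates, by 1.37-fold, and was not called. The median of the members was 0.305, beside 0.0509 over all genes. Trpm2 was thus called between segments over all neurons and in both marker groups.

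Split by segment and marker, Trpv1 had plate means of 1580 to 2208 in LS Gfra3 neurons with Ntm, 865 to 1377 in those without and 569 to 835 in TL Gfra3 neurons, ranges that did not overlap. Piezo2 neurons without Gfra3 had lower plate means, of 90.9 to 337 in LS and 17.7 to 158 in TL. For Trpa1 the order differed. Its plate means were 310 to 757 in TL Gfra3 neurons and 219 to 490 in LS Gfra3 neurons without Ntm, ranges that overlapped, and 29.5 to 81.7 in those with Ntm. Trpm2 was highest in LS Gfra3 neurons with Ntm, at 17.1 to 27.1, followed by those without (8.31 to 16.9) and LS Piezo2 neurons (7.56 to 11.6), which overlapped. TL Gfra3 neurons lay at 4.11 to 6.46, below each of the LS ranges.

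**Figure D3:**
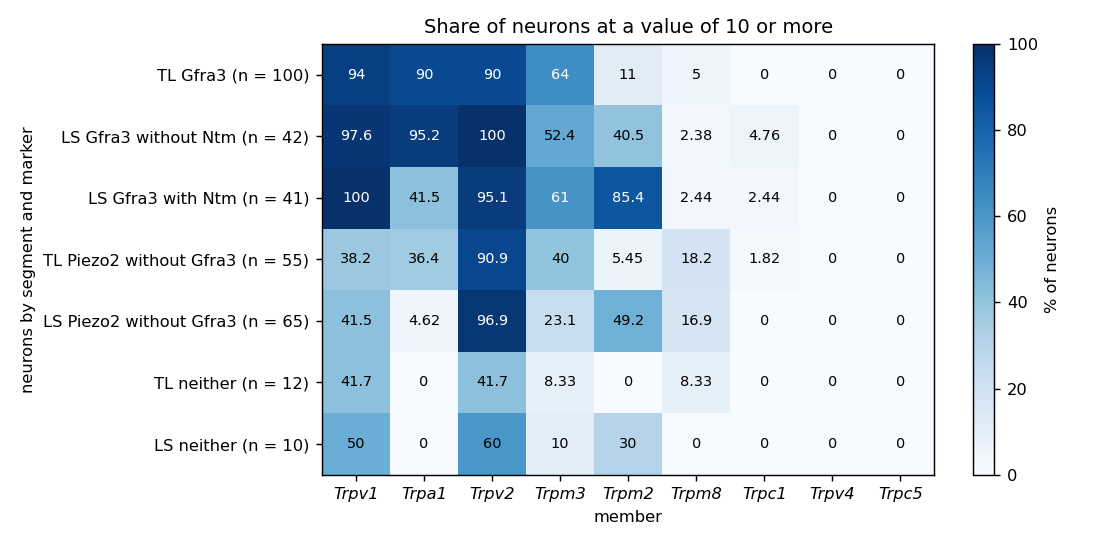
Share of neurons (%) at a value of 10 or more for each member, by segment and marker. Trpv1 is found in 100% of LS Gfra3 neurons with Ntm and 94% of TL Gfra3 neurons, Trpa1 in 95.2% of LS Gfra3 neurons without Ntm but 41.5% of those with it and 4.62% of LS Piezo2 neurons without Gfra3.

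**Figure D4:**
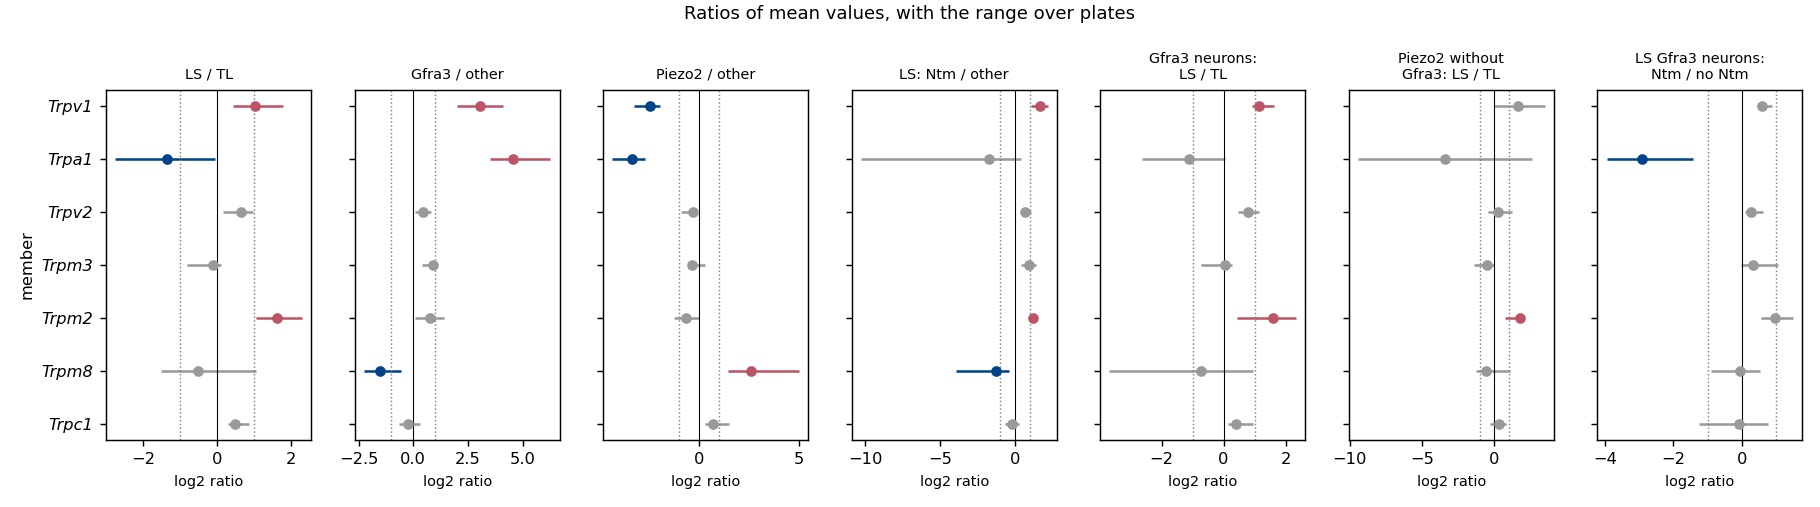
Log2 ratio of mean values for the 7 members with a mean of at least 1 in the 7 comparisons, each with its own axis, with bars from the lowest to the highest plate and dotted lines at 2-fold (red, called higher; blue, called lower; grey, not called). Trpm2 lies right of 0 in each plate for LS against TL (1.05 to 2.30), and Trpa1 has the highest ratio for Gfra3 against other neurons (4.57).

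Co-expression was examined because TRPV1 and TRPA1 are known to act together in nociceptors. In TL, 101 of 120 Trpv1 neurons also had Trpa1 (84.2%, 76.4 to 90.2), compared with 9 of 47 without Trpv1 (19.1%). In LS, 59 of 114 Trpv1 neurons had Trpa1 (51.8%, 42.2 to 61.2), compared with 1 of 44 without Trpv1 (2.27%). Read the other way, Trpv1 was present in 101 of 110 Trpa1 neurons of TL (91.8%) and 59 of 60 of LS (98.3%). Over each segment as a whole, Trpa1 neurons therefore nearly always had Trpv1. Trpv1 neurons without Trpa1 made up 11.4% of TL (19 neurons) and 34.8% of LS (55 neurons). These Trpv1 neurons without Trpa1 had a mean Trpv1 value of 237 in TL and 1064 in LS.

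Both transcripts were present in 88 of 100 TL Gfra3 neurons and 40 of 42 LS Gfra3 neurons without Ntm, compared with 17 of 41 with Ntm. Neurons with Trpa1 and without Trpv1 numbered 9 in TL and 1 in LS, and 7 of those in TL were Piezo2 neurons without Gfra3. In that TL group 20 neurons had Trpa1, and 13 of these also had Trpv1. Across neurons, which share plates and cultures, Spearman's rho of Trpv1 and Trpa1 was 0.782 in TL and 0.47 in LS. The median glial sum was 1282 with Trpa1 and 505 without, and 1038 with Trpv1 and 931 without. The summed macrophage list, which is mainly C1qb, had a median of 48.4 with Trpv1 and 8.48 without (rho 0.575), and the fibroblast list, which is mainly Dcn, 29.2 and 0.993 (rho 0.481). The endothelial list, which is mainly Egfl7, had a median of 60.7 with Trpv1 and 35.6 without (rho 0.444). With Trpa1 its median was 66.8 and without Trpa1 42.5 (rho 0.474). The part of these lists in the result was not tested. Within LS Gfra3 neurons rho was -0.185 (83 neurons), compared with 0.639 within TL Gfra3 neurons (100 neurons). The LS Gfra3 neurons pool those with Ntm (mean Trpv1 1905, mean Trpa1 52) and those without (1261 and 391). Their rho therefore includes the difference between these groups and is not that of either group alone.

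**Figure D5:**
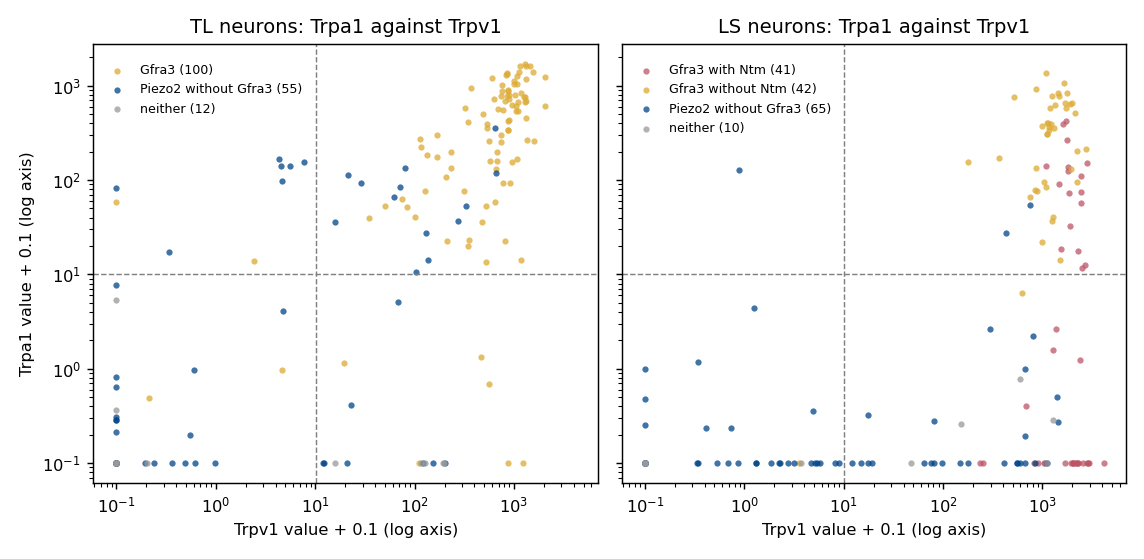
Trpa1 against Trpv1 in each neuron (value with 0.1 added, log axes) for TL and LS, coloured by marker group, with dashed lines at a value of 10. The upper right field holds 101 TL and 59 LS neurons, and the 24 LS Gfra3 neurons with Ntm that lack Trpa1 lie at the lower right with a mean Trpv1 of 1829.

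Trpm2 accompanied Trpv1. In LS, 77 of 114 Trpv1 neurons had Trpm2 (67.5%, 58.1 to 76), compared with 10 of 44 without Trpv1 (22.7%), and rho was 0.631. In TL the shares were 11 of 120 (9.17%) and 3 of 47 (6.38%), and rho was 0.515. All 101 Trpm2 neurons had Trpv2, compared with 194 of 224 other neurons (86.6%). For Trpm2 and Trpa1, rho was 0.128 in LS, where Trpa1 was present in 33 of 87 neurons with Trpm2 (37.9%) and 27 of 71 without (38%), and 0.463 in TL, where it was present in 10 of 14 (71.4%) and 100 of 153 (65.4%). The glial sum was lower in Trpm2 neurons, with a median of 251 compared with 1607 in the others, and the number of genes above 0 had a rho of 0.393 with Trpm2 across 325 neurons. The macrophage list had a median sum of 52.7 with Trpm2 and 23.6 without (rho 0.477), and the fibroblast list 90.9 and 7.25 (rho 0.295). Their part in the co-expression was not tested.

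Trpm3 also accompanied Trpv1. It was present in 62 of 114 LS neurons with Trpv1 (54.4%) and 1 of 44 without (2.27%), and in TL in 72 of 120 (60%) and 15 of 47 (31.9%). Trpm8 had the opposite pattern. Of its 29 neurons, 11 had Trpv1 (37.9%, 20.7 to 57.7), compared with 223 of 296 others (75.3%, 70 to 80.1), and 7 had Trpa1 (24.1%), compared with 163 (55.1%). Piezo2 was present in 25 of the 29 (86.2%, 68.3 to 96.1) and 120 of 296 others (40.5%, 34.9 to 46.4). The median glial sum was 2147 with Trpm8 and 696 without, and its part in the result was not tested. Nefh, which encodes the neurofilament heavy chain, had a median of 232 with Trpm8 and 51.3 without. Tac1, which encodes substance P, had medians of 0.97 and 1914. Counted over the 9 members, a neuron had a median of 3 at 10 or more in TL (0 to 5) and 3.5 in LS (0 to 6).

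The study's own marker genes, which were chosen on these neurons, divided the members further. Trpa1 is itself among these markers, so its shares with the others are not independent of that choice. Mrgprd neurons (15 TL and 2 LS), the non-peptidergic type, had Trpa1 in 15 of 17 with a mean of 120 and Trpv1 in 9 of 17 with a mean of 77. Trpm2 reached 10 in 0 of 17, which allows 17.6%. Fam19a1 neurons (34 TL and 6 LS) had Trpm8 in 13 of 40 (32.5%, 18.6 to 49.1) and Trpv1 in 11 of 40. Smr2 neurons (17 TL and 7 LS) had Trpv1 in 16 of 24 with a mean of 296, and Trpa1 in 8. Cbln2 neurons (12 TL and 5 LS) had Trpv2 in 16 of 17 but Trpv1 in 2, Trpa1 in 1, and Trpm8 and Trpm3 in 0.

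The 44 Hpse neurons were all from LS and had Trpa1 in 0, which allows 6.82%, with a mean of 0.0842. They had Trpm2 in 23 (52.3%, 36.7 to 67.5), Trpv1 in 17 (38.6%) with a mean of 106, and Trpm8 in 7. The 48 Ntm neurons had Trpm2 in 42 (87.5%, 74.8 to 95.3) and Trpm3 in 30 (62.5%). Hpse and Ntm were together in 2 neurons. Trpa1, Hpse and Ntm were chosen by the study as markers of different subtypes.

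Of 19 other TRP family genes, 9 had a mean of at least 1 over all neurons, and between LS and TL 0 were called higher (background 3.68% of genes) and 2 lower (background 3.19%), with a median log2 ratio of -0.139. Those lower in LS were Trpc6 (3.26 against 10.3) and Trpc7 (2.74 against 6.49), channels opened by diacylglycerol. Trpc7 was also the 1 gene of this list called higher in Gfra3 neurons (background 4.75%), at 7.3 against 1.27. In the 17 Mrgprd neurons Trpc6 had a mean of 66.8, with 14 at 10 or more. The other members of the family found in at least 10% of neurons were the lysosomal channel Mcoln1 (93.2%), the calcium-activated Trpm4 (56.3%), Pkd2l2 (36.3%) and the channel kinase Trpm7 (24.6%).

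Of 31 genes known to bind, sensitise or signal through TRPV1 or TRPA1, 28 had a mean of at least 1. Between LS and TL, 0 were called higher (background 3.68% of genes) and 3 lower (background 3.19%), with a median of -0.258. These were the itch receptor Mrgpra3 (0.149 in LS and 23.7 in TL), Mrgprx1 (4.17 and 16.4) and the histamine receptor Hrh1 (0.698 and 2.44). In Gfra3 neurons 3 were called higher (background 4.75%), with a median of 0.187 over the list. They were the bradykinin receptor Bdkrb2 (13.3 against 2.4), Mrgprx1 (16 against 3.3) and the prostaglandin receptor Ptger1 (29.8 against 13.5). The 2 called lower there (background 4.74%) were the kinase gene Prkcb (6.04 against 31.6) and the tumour necrosis factor receptor Tnfrsf1a (5.15 against 34.1). In LS Gfra3 neurons with Ntm, 4 were called lower than in those without (background 2.17%), among them the prostacyclin receptor Ptgir (22.6 against 105), Mrgprx1 (1.5 against 11) and Prkcb (0.388 against 6.71), and 0 higher (background 4.00%). In Piezo2 neurons 3 of the list were called higher (background 5.48%) and 2 lower (3.69%), and in Ntm neurons within LS 1 higher (2.13%) and 5 lower (4.39%). Between LS and TL within Gfra3 neurons, 0 were called higher (2.40%) and 3 lower (2.81%). Within Piezo2 neurons without Gfra3, 0 were called higher (5.88%) and 2 lower (3.14%).

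The genes whose values ranked neurons most like each member were found among 10283 genes at 10 or more in at least 10% of neurons, by Spearman's rho over 325 neurons. For Trpv1 they were Tac1 (0.886), Optn (0.822) and Gpx3 (0.812). For Trpa1 they were Frzb (0.794), Gpr35 (0.785) and Mal2 (0.768), and for Trpm2 Sgsm1 (0.734), Qpct (0.696) and Npy1r (0.68). For Trpv2 they were H13 (0.697), Cadm1 (0.683) and Slc7a8 (0.67), and for Trpm3 Srebf2 (0.614), Gcnt2 (0.605) and Stat3 (0.595). Within the segments, Tac1 and Trpv1 had a rho of 0.864 in TL and 0.854 in LS, whereas Frzb and Trpa1 had 0.891 and 0.69, and Npy1r and Trpm2 0.422 and 0.652.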

How the data were processed

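Single neurons were sequenced by Smart-seq2 with poly(A)-selected cDNA and paired-end reads. Per the labels' processing notes the authors used bcl2fastq 2.15.0.4, STAR 2.4.1, featureCounts 1.4.4 and GRCm38.p3, and the methods add Ensembl annotation and a filter on low-quality cells. The deposited table holds log2(x + 1) values of 325 neurons, where x was proportional to reads divided by gene length. Its neurons had not yet been filtered for satellite glia. Of 399 neurons in the labels, 74 were not analysed here, nor were 13 bath controls. Each x was rescaled to a sum of 1000000 per neuron. Reads were recovered from x with GENCODE M21 exon lengths, which gave whole reads for 26057 genes (65% of values above 0, relative tolerance 1e-06), and with lengths found from the values for 8712 genes. Lengths for Trpm2 and Trpm3 were found in this way (12323 and 8061 bases).

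A call needed a ratio of mean values of 2 or more, the same direction in each plate with 3 or more neurons of both groups, and a mean of at least 1. Pairs of members, a floor of 3 counts for shares of 0, and Spearman's rho are descriptions without a test. Named genes were all 9 members, other TRP genes called for LS against TL or Gfra3 or found in at least 10% of neurons, called genes of the signalling list, and the 3 genes most like each member found in at least 10% of neurons. Trpc6 in Mrgprd neurons and the genes named for Ntm were chosen after their values were seen. Some results of the lists are not reported here. Members and lists were chosen with earlier results of these data known. Positions come from GENCODE M21, and 2 promoter windows from RefSeq. No 2 neurons had identical values. No doublet caller was run on these hand-picked cells. Python 3.11.15, NumPy 2.4.6, SciPy 1.17.1, pandas 2.3.3 and matplotlib 3.10.9 were used.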

Additional observations from a re-analysis of the deposited data

How the results depend on the processing

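Shares, pairs and calls were recomputed under other thresholds, means, scalings and sets of neurons, and 1 library plate was left out at a time. The limit of a glial sum below 1000, and leaving out plates for the pairs, were chosen after seeing the data. No ratio changed direction for a called member. In TL (8.38%) the share with Trpm2 was 39.5% at a threshold of 5, 0.599% at 20, 14.4% on the deposited log2 value and 62.7% with 5 or more of 500000 thinned reads, and in LS (55.1%) it was 80.4%, 20.3%, 45.6% and 89.7%. The thinned alternative counts reads without length, and Trpm2 has the largest exon length of the members called. The share with Trpv1 in TL was 63.5% with a glial sum below 1000, and Trpa1 among TL Trpv1 neurons was 90.5% without neurons of few genes. Of 3 members called between LS and TL, 1 was called at 3-fold. Trpv1 was lost there for means of plate means, for geometric means, without neurons of few genes and without the 5% of neurons with the most glial RNA, where its log2 ratio was 0.98, 0.97, 0.86 and 0.97, beside 1.03. For Gfra3 (3 called) 5 were called at 1.5-fold and with geometric means at a pseudocount of 0.1. For Ntm within LS (3 called) 5 were called at 1.5-fold and 1 at 3-fold. For LS against TL within Gfra3 neurons (2 called) geometric means gave 4 at either pseudocount, 3-fold gave 1, and leaving out plates gave 1 to 3. Within Piezo2 neurons without Gfra3 (1 called), geometric means gave 2, or 3 at a pseudocount of 0.1. No demand on plates, a marker threshold of 20 and a glial sum below 1000 gave 3 each, a marker threshold of 5 gave 2, and leaving out plates gave 1 to 2. For Ntm within LS Gfra3 neurons (1 called), means of plate means, a marker threshold of 5, leaving out neurons of few genes, leaving out the 5% with the most glial RNA and a glial sum below 1000 gave 2 each, 1.5-fold gave 3, and leaving out plates gave 1 to 2. The causes were not tested. Another 108 counts of calls stayed within 1.5 times, a rule that looks at the number of members and not at which were called. A change from 3 to 2 passes it, and so does an exchange of members. For Gfra3, geometric means lost Trpm8 and gained Trpm3, with 3 called. For LS against TL within Gfra3 neurons, leaving out neurons of few genes lost Trpv1 and gained Trpa1, with 2 called. Of the other shares with Trpv1, Trpa1 and Trpm2, 69 stayed within the interval. Of the shares with Trpv2, Trpv4, Trpm3, Trpm8, Trpc1 and Trpc5, 129 stayed within it and 27 moved, among them Trpm3 at a threshold of 20 (10.2% in TL and 10.8% in LS, beside 52.1% and 39.9%) and Trpc1 in TL at 5 (9.58%, beside 0.599%). Trpm2 was called between LS and TL under each alternative run.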
